A study of Rattus norvegicus with 6 samples.

Results

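Serum response factor (SRF), its myocardin family coactivators, the ternary complex factors of the Elk group, the Kruppel-like factors Klf4 and Klf5 and the muscle factor Mef2c are transcription factors and coactivators that set the contractile programme of smooth muscle. Rows of the count table were taken by gene symbol for 10 of these regulators, and all 10 were found, with 1 row each, among the 14475 genes of the table. The regulators were measured as polyadenylated RNA of vascular smooth muscle (VSM) cells grown out of the SFA (soleus feed artery), which brings blood to the soleus, a postural muscle of the hindlimb, in male rats. The young group held 3 libraries from rats aged 4 months and the old group 3 libraries from rats aged 24 months, each from the cells of 1 rat. Cells of both groups were grown in serum-containing medium, the labels name no transgene and no drug, and neither passage number nor time in culture is given in the sources used here. The comparison of old with young cells addresses which genes of VSM cells differ with the age of the rat.

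SRF binds a short DNA element, the CArG box, in the promoters of contractile genes and of immediate early growth genes. Myocardin, encoded by Myocd, is a nuclear coactivator found mainly in smooth and cardiac muscle that drives the contractile genes, whereas its relatives encoded by Mrtfa and Mrtfb are held in the cytoplasm by actin monomers and enter the nucleus when actin polymerizes. The Elk proteins are phosphorylated by MAP kinases, bind SRF at growth genes and compete with myocardin for it. Klf4 represses contractile genes, Klf5 is known from proliferating VSM cells, and Mef2c belongs to the same DNA-binding family as SRF. RNA counts show neither the phosphorylation nor the location of these proteins.

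Promoter sequences from RefSeq (build GRCr8) were matched by symbol for 8 of the 10 regulators, all except Myocd and Mef2c. Only the 250 bases before each start were searched, on both strands, for the CArG box in its strict form. Of the 8 regulators, 1 held it, and this was Srf itself, with 2 boxes at positions -81 to -72 and -61 to -52 from the start. Over all 33469 promoters of the same length, 1.5% held a box, and counted by gene the share was 1.62% of 27457 genes. The sequence of Srf is shown because the member that binds CArG boxes is also the member whose window holds them. In the gene lists described further on, 1 of 15 matched contractile targets (Fhl2) and 2 of 8 immediate early targets (Egr1 and Egr2) held a box. So did 1 of 20 cofactors (Fhl1), 1 of 8 other Kruppel-like factors (Klf6) and 1 of 5 skeletal muscle markers (Acta1). It was in 0 of 7 other Mef2 and Ets genes and in 0 of the matched 6 fibroblast, 3 endothelial, 3 macrophage and 9 proliferation markers. Boxes of Fhl2, Egr2 and Fhl1 are shown for comparison, 1 each from the contractile targets, the immediate early targets and the cofactors. Fhl2 also held a box before another start, at positions -95 to -86, which is not shown. They are printed from 5′ to 3′ on the strand of the gene, with the CArG box in capitals and coordinates of GRCr8, which is not the build the reads were aligned to.
Srf, chr9:21923975-21924044, plus strand: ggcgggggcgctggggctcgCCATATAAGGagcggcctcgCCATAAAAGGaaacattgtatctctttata
Fhl2, chr9:52923355-52923404, minus strand: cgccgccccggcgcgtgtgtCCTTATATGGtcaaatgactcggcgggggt
Fhl1, chrX:139638374-139638423, plus strand: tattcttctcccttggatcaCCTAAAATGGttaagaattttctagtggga
Egr2, chr20:21054495-21054544, minus strand: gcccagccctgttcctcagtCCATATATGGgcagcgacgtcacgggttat
Letters that match a box describe the window and are no evidence of binding. The letters CCGGAA or their reverse complement TTCCGG are the core bound by Ets factors such as the Elk proteins. They were in the same window of 3 of the 8 matched regulators, Srf, Mrtfb and Elk4. Of all genes with a promoter 14.1% held them, and of all promoters 12.6%.

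Counts on genes summed to between 44235674 and 59700887 per library, and no member had fewer than 88 counts in any library. Values are CPM, counts scaled to the library total after TMM normalization, and differences are log2 fold changes of old over young from edgeR's quasi-likelihood test fitted over all 14475 genes. A gene was called at an adjusted p under 0.05 with a change of at least 1 on the log2 scale in either direction. By this rule edgeR called 0 of the 10 regulators, beside 0.00691% of all genes (1 gene), and 5 of the 10 had an unadjusted p under 0.05, beside 22.6% of all genes. The DESeq2 Wald test, the tool of the study, called 2 of the 10, beside 5.68% of all genes with an adjusted p. These were Myocd, where 3.38% of genes were called as lower in old cells, and Klf4, where 2.3% were called as higher. It gave an adjusted p under 0.05 without the fold limit to 4 of the 10, beside 12.5%. limma-voom called 0 of the 10, beside 0 of all genes, with 5 of the 10 and 23.1% of all genes at an unadjusted p under 0.05. For 5 of the 10 the 3 old libraries lay all above or all below the 3 young libraries, beside 29.2% of all genes. Of the 10, 6 were lower and 4 higher in old cells, with a median log2 fold change of -0.12 beside 0.02 for all genes. The median of the members was -0.36 without old replicate 1 and -0.051 without old replicate 2. With 3 libraries a group, 0.1 is the smallest p of an exact two-sided permutation test, and the 5 members with separate groups had it. In these bulk samples, fewer cells of a type and less RNA per cell cannot be told apart.

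**Figure D1:**
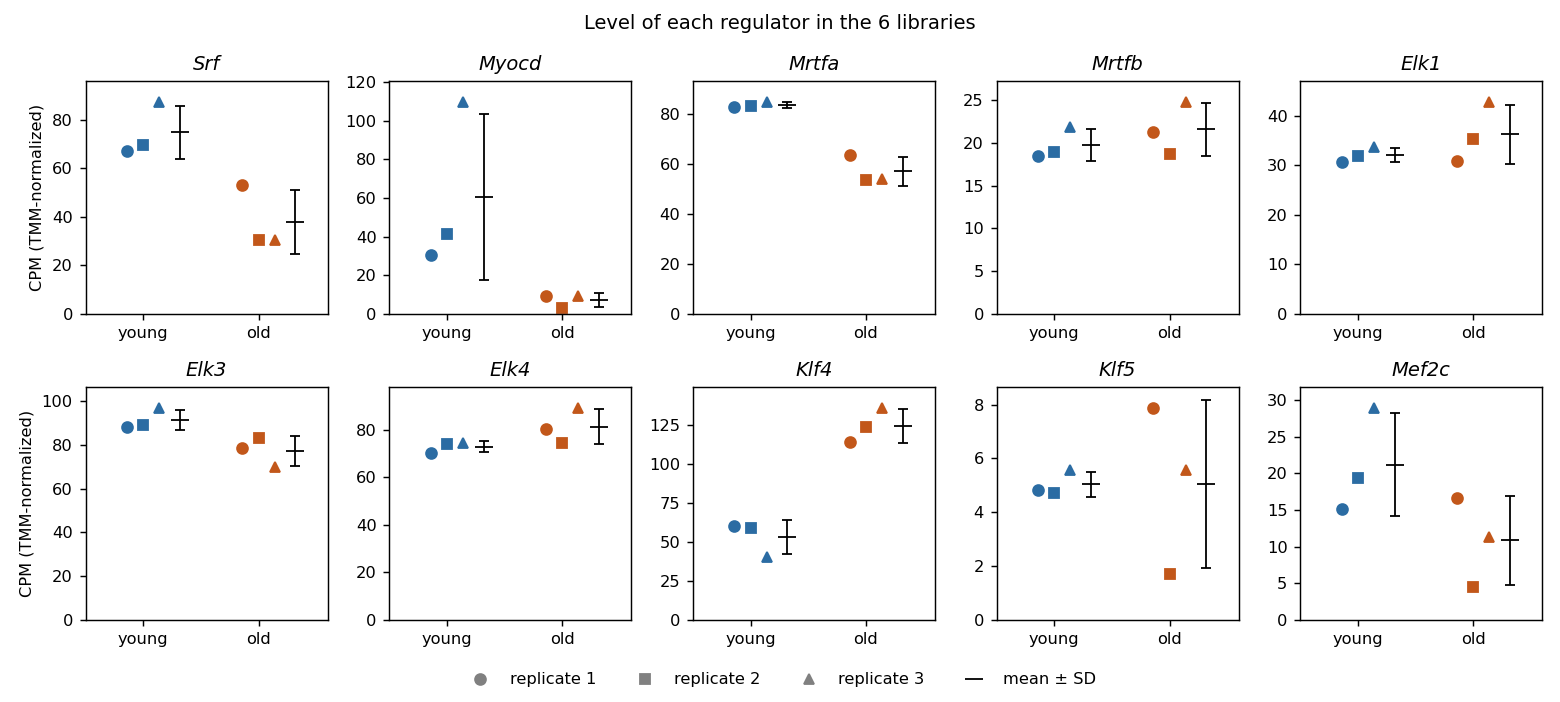
Level of each of the 10 regulators in TMM-normalized CPM (vertical axes, which start at 0 and differ between panels) in the young and old libraries. Symbols mark the replicate number and bars the mean ± SD of 3 libraries, and the groups are separate for Srf, Myocd, Mrtfa, Elk3 and Klf4.

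Srf (ENSRNOG00000018232), the DNA-binding partner of the coactivators, was lower in old VSM cells. It was at 67.4, 69.9 and 87.4 CPM in young replicates 1, 2 and 3 and at 53.1, 30.4 and 30.4 CPM in old replicates 1, 2 and 3. The groups did not overlap, and old replicate 1 lay nearest to the young libraries. Srf averaged 74.9 ± 10.9 CPM over the young and 37.9 ± 13.1 CPM over the old cultures (SD, n = 3 each). The log2 fold change of Srf was -0.98 (standard error 0.25, 95% interval -1.58 to -0.38), with an unadjusted p of 0.00675 and an adjusted p of 0.111 from edgeR. DESeq2 gave an adjusted p of 0.00734 at a fold just under the limit. Without old replicate 1 the log2 fold change was -1.30 and edgeR called Srf, with an adjusted p of 0.0262, where the adjusted p ranged from 6.1e-12 to 0.276 over all alternatives, DESeq2 with libraries left out included.

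Myocd (ENSRNOG00000003669) had the largest difference of the 10. It was at 30.2, 41.5 and 110 CPM in young replicates 1, 2 and 3 and at 9.25, 3.08 and 9.33 CPM in old replicates 1, 2 and 3. The lowest young library was 3.24 times above the highest old library. The young libraries were also far from each other, with young replicate 3 at 3.63 times the level of young replicate 1, and the coefficient of variation of 71.2% in young was higher than that of 97.8% of the 12257 genes with a mean of at least 1 CPM. From an average of 60.5 ± 43.0 CPM over the young to 7.22 ± 3.59 CPM over the old cultures (SD, n = 3 each), its log2 fold change was -3.07 (standard error 0.65, 95% interval -4.62 to -1.51), or 8.37 times lower. Of all genes, 0.836% had a larger log2 fold change in either direction. The unadjusted p was 0.00264 and the adjusted p 0.0823 from edgeR, while DESeq2 called Myocd with an adjusted p of 7.18e-06. Without young replicate 3 the log2 fold change was -2.31, the smallest size with any library left out.

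Of the myocardin-related factors, Mrtfa was lower in each old library and Mrtfb overlapped between the groups. Mrtfa (ENSRNOG00000018803) was at 82.6, 83.2 and 84.6 CPM in young cultures against 63.5, 53.3 and 53.9 CPM in old cultures. The young values were almost the same, with a coefficient of variation of 1.22% that was higher than that of only 1.75% of genes, and each old library lay below them. Its log2 fold change was -0.55 (standard error 0.10, 95% interval -0.79 to -0.32), with an unadjusted p of 0.00107 and an adjusted p of 0.0648 from edgeR and an adjusted p of 0.000147 from DESeq2. The difference was below the fold limit, and with each library left out the log2 fold change of Mrtfa stayed between -0.64 and -0.51. Mrtfb (ENSRNOG00000066694) was at 18.5, 18.9 and 21.9 CPM in young cultures against 21.3, 18.7 and 24.8 CPM in old cultures. These values interleave, and the log2 fold change of 0.13 had a 95% interval from -0.21 to 0.46 (unadjusted p = 0.395 from edgeR).

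The ternary complex factors differed little. Elk3 (ENSRNOG00000004367), also known as Net and able to repress SRF targets, was at 88.1, 89.1 and 96.7 CPM in young cultures against 78.7, 83.2 and 69.8 CPM in old cultures. The groups did not overlap, but the highest old library was close to the lowest young library, and the log2 fold change was -0.24 (standard error 0.10), with an unadjusted p of 0.04998 and an adjusted p of 0.221 from edgeR. Elk1 (ENSRNOG00000010171), the best known MAP kinase target of the family, was at 30.7, 31.9 and 33.7 CPM in young cultures against 31.0, 35.2 and 42.8 CPM in old cultures. Elk4 (ENSRNOG00000007887), also known as Sap1, was at 70.1, 73.8 and 74.3 CPM in young cultures against 80.1, 74.3 and 89.0 CPM in old cultures. Groups overlapped for Elk1 and Elk4. The 95% intervals of their log2 fold changes were -0.14 to 0.50 and -0.08 to 0.39, so that a 2-fold difference in either direction lay outside both (unadjusted p = 0.225 and 0.151 from edgeR).

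Klf4 (ENSRNOG00000016299), the repressor of contractile genes, had the smallest p of the 10 and was higher in old VSM cells. It was at 60.3, 58.9 and 40.4 CPM in young cultures against 114, 124 and 136 CPM in old cultures. Each old library lay at least 1.89 times above the highest young library, and the old libraries were close to each other, with a coefficient of variation of 8.80%. From an average of 53.2 ± 11.1 CPM over the young to 125 ± 11.0 CPM over the old cultures (SD, n = 3 each), its log2 fold change was 1.23 (standard error 0.17, 95% interval 0.81 to 1.65), or 2.34 times higher. The unadjusted p was 0.000304 and the adjusted p 0.0545 from edgeR, which placed Klf4 at rank 80 of all genes, and DESeq2 called it with an adjusted p of 1.51e-07. Its edgeR call depended on the setting. With genes limited to at least 1 CPM in 3 libraries the adjusted p was 0.0494, and without old replicate 1 it was 0.0306, where the range over all alternatives was 4.29e-12 to 0.230, DESeq2 with libraries left out included.

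Klf5 (ENSRNOG00000008785) had the fewest counts of the 10, with 88 to 391 per library. It was at 4.83, 4.72 and 5.58 CPM in young cultures against 7.86, 1.69 and 5.56 CPM in old cultures. The old libraries lay on both sides of the young ones and spread over 4.64 times, and the log2 fold change of 0.00 had a 95% interval from -1.22 to 1.22. The interval holds a 2-fold difference of Klf5 in either direction, and the sign depended on the library left out, from -0.47 without old replicate 1 to 0.41 without old replicate 2.

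Mef2c (ENSRNOG00000033134) was at 15.2, 19.4 and 28.9 CPM in young cultures against 16.7, 4.52 and 11.4 CPM in old cultures. The groups overlapped, because old replicate 1 lay above young replicate 1. Its log2 fold change of -0.96 was as large as that of Srf, but the standard error was 0.48 and the 95% interval -2.12 to 0.19, with an unadjusted p of 0.0879 and an adjusted p of 0.279 from edgeR. The value was -1.41 without old replicate 1 and -0.60 without old replicate 2. DESeq2 gave Mef2c an unadjusted p of 0.0447 and an adjusted p of 0.178. Its DESeq2 call depended on the libraries, with an adjusted p of 0.0194 without old replicate 1 and 0.526 without young replicate 3. Reads of an antisense partner of Mef2c or of any other member cannot be separated here, since the strand setting of the counting is not given in the sources used here.

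**Figure D2:**
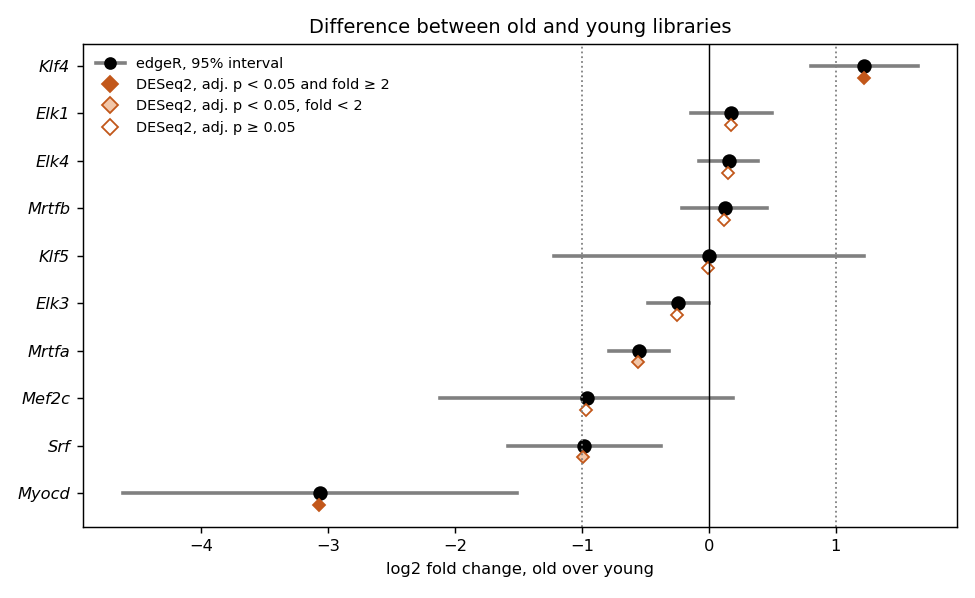
Log2 fold change of old over young for each regulator, with the edgeR value and its 95% interval (circles and lines) and the DESeq2 value (diamonds). Dotted lines mark the fold limit of 2, dark diamonds mark Myocd and Klf4, which DESeq2 called, and pale filled diamonds mark Srf and Mrtfa, which passed its adjusted p but not the fold limit.

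Ratios of counts within a library do not depend on the scaling of the library. Their level also reflects transcript lengths, and only the difference between groups is compared. The log2 ratio of Klf4 to Myocd was 1.00, 0.51 and -1.44 in young replicates 1, 2 and 3 and 3.62, 5.33 and 3.86 in old replicates 1, 2 and 3. Thus Klf4 counts were 0.368 to 2.00 times those of Myocd in young cells and 12.3 to 40.3 times those of Myocd in old cells. The mean difference was 4.25 on the log2 scale, or 19.1 times (p = 0.1 from the exact two-sided permutation test, adjusted p = 0.125 over the 5 ratios). Klf4 alone was higher and Myocd alone lower in each old library, so this ratio had to separate the groups. Its p therefore restates the differences of Klf4 and Myocd and adds no support to them. The ratio of Klf5 to Myocd was also separate between the groups, with a mean difference of 2.74, although Klf5 itself overlapped. This difference comes mostly from Myocd, whose own log2 fold change was -3.07. Each of the 5 ratios kept its direction with any library left out, and for Klf4 to Myocd the difference stayed between 3.52 and 4.74.

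Myocd was lower also relative to its partner Srf. The log2 ratio of Myocd to Srf was -1.16, -0.75 and 0.33 in the young and -2.52, -3.30 and -1.70 in the old libraries, a mean difference of -1.98 (exact permutation p = 0.1, adjusted p = 0.125). For Mrtfa to Srf the ratio was 0.29, 0.25 and -0.05 in the young and 0.26, 0.81 and 0.83 in the old libraries, and the groups overlapped (exact permutation p = 0.2, adjusted p = 0.2). The balance between the related factors differed by 0.68 on the log2 scale, since the log2 ratio of Mrtfb to Mrtfa was -2.16, -2.14 and -1.95 in the young and -1.58, -1.51 and -1.12 in the old libraries (exact permutation p = 0.1, adjusted p = 0.125).

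**Figure D3:**
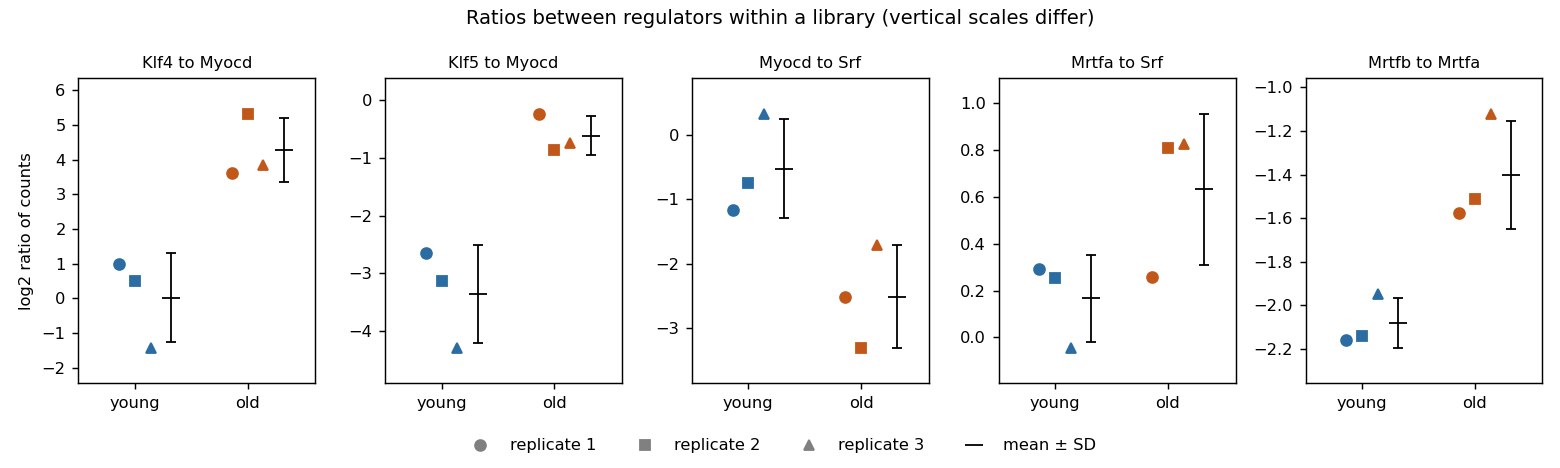
Log2 ratio of the counts of 2 regulators in each library (vertical axes, with scales that differ between panels), with the mean ± SD of 3 libraries. The old libraries lie above the young ones for Klf4 to Myocd, Klf5 to Myocd and Mrtfb to Mrtfa and below them for Myocd to Srf, and the groups overlap for Mrtfa to Srf.

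The contractile targets of SRF were lower in old VSM cells over most of the list. Of 20 listed genes, 19 were analysed, 19 were lower, 18 had an unadjusted p under 0.05 in edgeR, beside 22.6% of all genes, and DESeq2 called 13, beside 5.68%, with a median log2 fold change of -1.48. edgeR called 0 of them. Des, which encodes desmin, had a log2 fold change of only -0.11 and groups that overlapped (unadjusted p = 0.894 from edgeR). The smallest p was that of Myl9, the regulatory light chain of smooth muscle myosin, which averaged 1393 ± 414 CPM over the young and 375 ± 55.2 CPM over the old cultures (SD, n = 3 each, log2 fold change -1.89, adjusted p = 0.0531 from edgeR). Tpm2, a tropomyosin, was lower by a log2 fold change of -1.70 and Cnn1, which encodes calponin, by -2.56 (adjusted p = 0.0557 and 0.0561 from edgeR). Acta2, Myh11 and Tagln, which encode smooth muscle α-actin, smooth muscle myosin heavy chain and transgelin, had log2 fold changes of -2.27, -3.08 and -1.54. Summed over the list, the level was 29435, 37508 and 46174 CPM in young replicates 1, 2 and 3 and 18294, 12145 and 12240 CPM in old replicates 1, 2 and 3. The sums did not overlap between the groups, and old replicate 1 was the highest of the old libraries. Fhl2, a LIM protein that binds SRF and a CArG box of which is shown above, averaged 157 ± 24.6 CPM over the young and 70.8 ± 20.9 CPM over the old cultures (SD, n = 3 each).

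The immediate early targets of SRF, growth response genes at which the Elk factors act, lay mostly within the spread between libraries. Of 15 listed genes, 12 were analysed, with 8 lower and 4 higher in old cells and a median log2 fold change of -0.29. DESeq2 called 0 of the 12, beside 5.68% of all genes. Only 1 had an unadjusted p under 0.05 in edgeR, beside 22.6%. The gene was Ier3, an early response gene, with a log2 fold change of -0.88 (adjusted p = 0.218 from edgeR). Fosl1, Btg2 and Nr4a1 followed by p, with log2 fold changes of -0.75, -1.43 and -1.54 and adjusted p from 0.224 to 0.240 from edgeR. Summed over the list, the level was 510, 564 and 632 CPM in young cultures against 591, 304 and 292 CPM in old cultures, so old replicate 1 lay within the young range and the other old libraries below it. Without old replicate 1 the median of the list was -0.99. Egr2, a growth response factor whose CArG box is shown above, averaged 6.18 ± 3.07 CPM over the young and 7.47 ± 6.55 CPM over the old cultures (SD, n = 3 each), with a log2 fold change of 0.27.

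**Figure D4:**
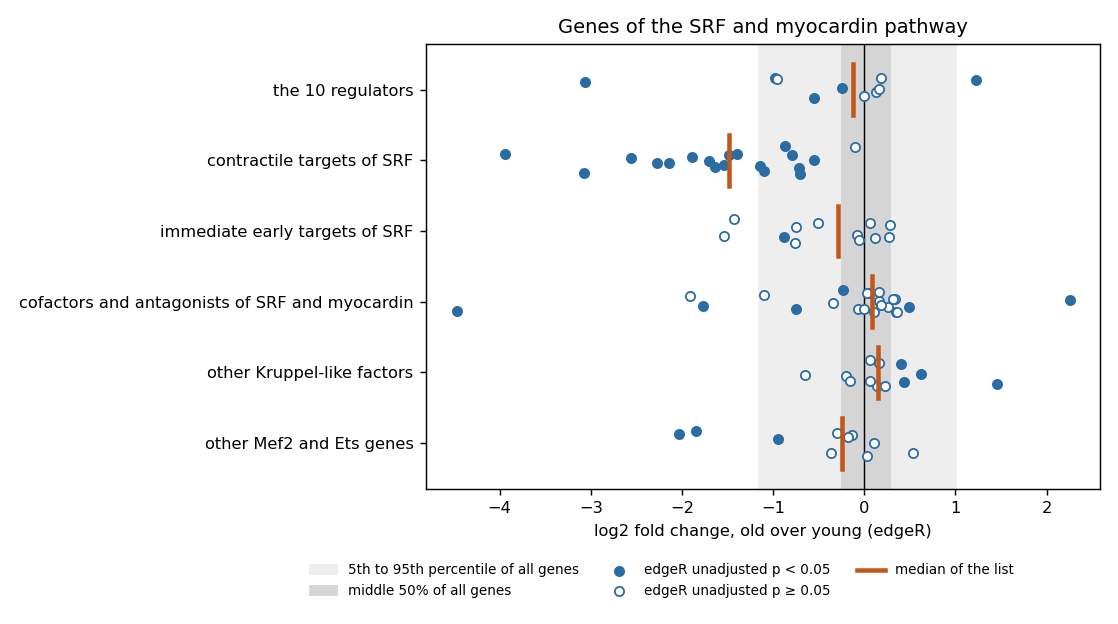
Log2 fold change of old over young (edgeR) for the 10 regulators and the genes of 5 pathway lists, with filled points at an unadjusted p under 0.05 and a bar at the median of each list, over the range of all genes in grey. The contractile targets have a median of -1.48, while the other lists have medians from -0.29 to 0.15.

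Cofactors and antagonists of SRF and myocardin lay on both sides of 0. Of 25 listed genes, 22 were analysed, with 9 lower and 13 higher in old cells. At an unadjusted p under 0.05 in edgeR, 4 were lower and 3 higher, beside 11.5% and 11.2% of all genes. The median log2 fold change was 0.08, between 0.041 and 0.12 with any library left out. Hey2, a Notch target that represses contractile genes, was at 2.84, 1.35 and 8.79 CPM in young cultures against 0.20, 0.08 and 0.30 CPM in old cultures (log2 fold change -4.47, adjusted p = 0.0743 from edgeR), from 4 to 16 counts per old library. Hopx, a homeodomain protein that binds SRF and keeps it from DNA, was at 3.81, 4.02 and 4.11 CPM in young cultures against 7.72, 16.6 and 32.7 CPM in old cultures (log2 fold change 2.25, adjusted p = 0.0926 from edgeR). Fhl1, a LIM protein of muscle, was lower (log2 fold change -1.77, adjusted p = 0.0531 from edgeR), and Tet2, a DNA demethylase that promotes the contractile state, was higher by 0.49 on the log2 scale (adjusted p = 0.0658 from edgeR). DESeq2 called 2 lower and 1 higher gene of the list, beside 3.38% and 2.3% of all genes with an adjusted p.

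Among other genes of the regulators' families, 12 of 15 further Kruppel-like factors were analysed, 9 were higher and 3 lower, and all 4 with an unadjusted p under 0.05 in edgeR were higher, beside 11.2% of all genes, with a median log2 fold change of 0.15 that was 0.31 without young replicate 3 and 0.083 without young replicate 2. Klf15, a muscle and metabolic factor, was at 4.96, 7.76 and 4.97 CPM in young cultures against 8.76, 18.9 and 21.0 CPM in old cultures. It was the 1 gene of the 12 that DESeq2 called as higher, beside 2.3% of all genes. Klf3, Klf10 and Klf13 were higher by 0.62, 0.41 and 0.43 on the log2 scale. Of 11 further Mef2 and Ets genes, 10 were analysed, with 7 lower and 3 higher. At an unadjusted p under 0.05 in edgeR 3 were lower, beside 11.5% of all genes, and DESeq2 called 2 as lower, beside 3.38%. The median of these genes was -0.24, and -0.11 without old replicate 2. Ets1 was at 97.5, 97.7 and 112 CPM in young cultures against 58.3, 52.9 and 47.8 CPM in old cultures (log2 fold change -0.95, adjusted p = 0.0531 from edgeR). Etv4 and Erg, other Ets factors, had log2 fold changes of -1.85 and -2.03, and Mef2d, the relative of Mef2c, had -0.14.

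Markers of other cell types were checked because several of the regulators are not restricted to smooth muscle. Fibroblast markers were higher in old cultures, with 9 of 10 analysed genes higher and a median log2 fold change of 1.40. Of the 10, 5 were higher at an unadjusted p under 0.05 in edgeR, beside 11.2% of all genes. DESeq2 called 3 as higher, beside 2.3%. The summed level of the fibroblast markers ranged from 550 to 961 CPM in young and from 1449 to 2335 CPM in old. Col14a1 and Pdgfra led the sum, and Clec3b had the smallest p, with a log2 fold change of 3.15. Skeletal muscle markers were lower, with 5 of 6 analysed genes lower and a median of -2.03. Of the 6, 3 were lower at an unadjusted p under 0.05 in edgeR, beside 11.5% of all genes. DESeq2 called the same 3, Acta1, Myh1 and Myh2, as lower, beside 3.38%. Summed levels were 174 to 391 CPM in young and 36.4 to 67.2 CPM in old, led by Acta1, whose promoter window holds a CArG box, and Myh1. Tnnt3, a troponin of fast skeletal muscle chosen after its values were seen, went the other way, with a log2 fold change of 0.92 (unadjusted p = 0.0472 from edgeR). Of 6 endothelial markers, 1 had an unadjusted p under 0.05 in edgeR, the Ets factor Erg, beside 22.6% of all genes. The summed levels of endothelial markers overlapped, at 35.1 to 45.2 CPM in young and 32.9 to 44.1 CPM in old, mostly from Egfl7 and Tek. The 3 macrophage markers Cd14, Csf1r and Cd68 summed to 5.13 to 16.0 CPM in young and 10.4 to 16.8 CPM in old. Of the 3, 0 had an unadjusted p under 0.05 in edgeR, beside 22.6% of all genes. Proliferation markers were lower, 12 of 12, with a median of -1.31. Of the 12, 4 were lower at an unadjusted p under 0.05 in edgeR, Mcm2 and Pcna among them, beside 11.5% of all genes. DESeq2 called 1 as lower, beside 3.38%. Groups were separate and lower in old for 4, beside 14.7% of all genes, and overlapped for the rest. Summed levels were 534 to 848 CPM in young and 155 to 585 CPM in old, led by Mki67 and Top2a. Without old replicate 1, the highest of the old libraries, the median of the proliferation markers was -2.39. The other 13 listed skeletal muscle, 1 fibroblast, 4 endothelial and 7 macrophage genes had no row under their symbol in the count table. Myod1, Myog and Pax7 of skeletal muscle, Cdh5 of endothelium and Ptprc of macrophages were among them. Counts under the filter and a row without a symbol cannot be told apart for these genes. Pecam1 and Vwf, which define endothelium, averaged 0.52 and 0.21 CPM over the young and 0.64 and 0.33 CPM over the old cultures. The part of fibroblasts, skeletal muscle cells and proliferation in the differences of Myocd, Srf, Klf4 and Mef2c was not tested.

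**Figure D5:**
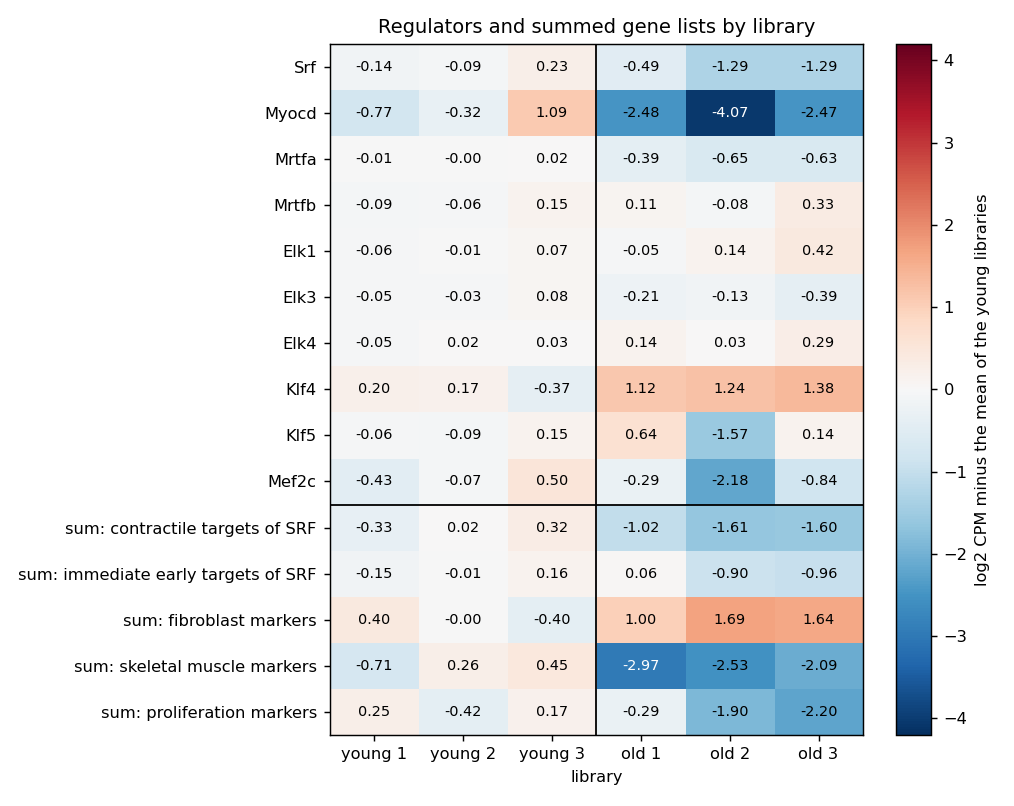
Log2 CPM of each regulator, and of the summed CPM of 5 gene lists, in each library minus the mean of the young libraries. Old replicate 1 is at -0.49 for Srf and 0.06 for the immediate early targets, where the other old libraries are at -1.29 and at -0.90 and -0.96, while for Klf4 the 3 old libraries lie between 1.12 and 1.38.

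The genes most like 4 of the regulators over the 6 libraries were found by the root mean square difference between mean-centred log2 CPM profiles, among 11420 other genes with a symbol, at least 1 CPM on average and counts in each library. Zyx, which encodes the focal adhesion protein zyxin, was closest to Srf, with a difference of 0.06 on the log2 scale, where the median over all compared genes was 0.63. It was at 399, 392 and 476 CPM in young cultures against 279, 180 and 174 CPM in old cultures, and Noct, which encodes nocturnin, came next at 0.08. Nearest to Klf4 was Lss, an enzyme of sterol synthesis, at 0.06, with 87.2, 87.1 and 58.9 CPM in young cultures against 185, 178 and 205 CPM in old cultures, followed by Mfsd4b2l2 at 0.12. Myocd had no neighbour as close in absolute difference, with Pkia, an inhibitor of protein kinase A, at 0.28 and Il1rl1, a receptor of interleukin 33, at 0.33. Hmga1, a chromatin protein, and Ralgps2 were closest to Mef2c, at 0.15 and 0.21. The median over all compared genes was 0.69 for Klf4, 1.70 for Myocd and 0.86 for Mef2c, so the differences are not on a like scale between regulators. With 6 libraries in 2 groups these likenesses describe the libraries only.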

How the data were processed

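Per the labels and the Methods, the authors trimmed reads with Cutadapt 3.5 through Trim Galore 0.6.7, aligned them with STAR 2.7.10b to Rnor 6.0 and counted them per gene with featureCounts (Subread 2.0.8). The Methods name a RefSeq annotation, whereas the table names genes by Ensembl identifier. The deposited values are whole-number raw counts, not normalized, of genes with at least 10 counts in at least 3 libraries. How strand, mates and multi-mapped reads were set is not given in the sources used here. Among counts from 1 to 19, 68.7% to 71.1% were even in each library, so both mates of a pair may have been counted, and halved counts were run as an alternative. All rows entered the fit, including 1518 without a symbol, and 0 value columns were left unused. Old and young libraries were compared in R 4.3.3 with edgeR 4.0.16 (TMM, quasi-likelihood F test, Benjamini-Hochberg adjustment over all genes, no covariates), with DESeq2 1.42.0 and limma-voom (limma 3.58.1) as alternatives. Standard errors are the log2 fold change over the square root of F. The scripts were tested on simulated data. The same-numbered libraries of both groups were not treated as pairs. Genes were named by rule: all members, the 4 genes of smallest edgeR p per pathway list with Acta2, Myh11, Tagln and Cnn1, the 2 most abundant and the 2 of smallest p per marker list, and the 2 genes most like Srf, Myocd, Klf4 and Mef2c. Fhl2, Egr1, Egr2 and Klf6 were named for their promoter sequences, Pecam1 and Vwf as defining endothelial markers, and Tnnt3 and Des after their values were seen. Myod1, Myog, Pax7, Cdh5 and Ptprc were named as listed markers without a row. The result of 1 further pathway list is not reported here. The members and lists were chosen with earlier results of these data known. P-values rest on the spread between 3 cultures per group.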

Additional observations from a re-analysis of the deposited data

How the results depend on the processing

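Alternatives were RLE size factors, library size only, 2 filters on low counts, DESeq2, limma-voom, the replicate block, halved counts and each library left out. All kept the direction of 9 of the 10 regulators. Klf5 reversed with library size only (0.0018), without young replicate 3 (0.077, DESeq2 0.074) and without old replicate 2 (0.41), with a range from -0.47 to 0.41 over libraries left out. The number of genes called, 1 by edgeR, was 65 with at least 1 CPM in 3 libraries, 805 by DESeq2 and 0 by limma-voom, and 0 to 732 with a library left out, the 732 without old replicate 1. Members called were 1 (Klf4) with that filter, 2 by DESeq2 and 0 to 2 with a library left out, the 2 being Srf and Klf4 without old replicate 1. The median log2 fold change of the members ranged from -0.36 without old replicate 1 to -0.051 without old replicate 2. DESeq2 with libraries left out, added after seeing the data, called 551, 600, 614, 651, 737 and 1377 genes and 2 to 4 members, with a member median from -0.37 to -0.052. The 4 members were Srf, Myocd, Klf4 and Mef2c, called without old replicate 1. With the replicate block 0 members and 1 of all genes were called, and 4 members had an unadjusted p under 0.05, beside 22.5% of all genes, with log2 fold changes of -3.01 for Myocd and 1.25 for Klf4. The labels give only a replicate number, and same-numbered libraries were not taken as pairs. The correlation of their deviations from the group means was 0.06, 0.31 and 0.29 for numbers 1, 2 and 3. For young 1 it was 0.34 with old 2 and -0.36 with old 3. For young 2 it was -0.28 with old 1 and -0.02 with old 3, and for young 3 it was 0.11 with old 1 and -0.45 with old 2. Groups not overlapping were not counted for limma-voom and the block, which give no levels of their own. Klf5, with the fewest counts, and Mef2c are limited by the spread of the old libraries.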

Other observations

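The old libraries were not alike across the regulators. In old replicate 1 Srf was 1.27 times below the lowest young library, and Mef2c lay within the young range. Klf5 of old replicate 1, at 7.86 CPM, lay above each young library. The summed proliferation markers of old replicate 1, at 585 CPM, lay within the young range of 534 to 848 CPM, whereas old replicates 2 and 3 were at 191 and 155 CPM. For Myocd and Klf4 old replicate 1 lay with the other old libraries, at 9.25 CPM beside 3.08 and 9.33 CPM for Myocd and at 114 CPM beside 124 and 136 CPM for Klf4. The summed fibroblast markers of old replicate 1, at 1449 CPM, were above each young library and below the 2335 and 2257 CPM of the other old libraries. Old replicate 2 had the lowest Myocd, Klf5 and Mef2c of the 6 libraries, with 160, 88 and 235 counts.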
